A study of Mus musculus with 24 samples.

Results

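Chromosomes 12 and 15 of the mouse were followed through 2 deposited tables of read counts per 1 Mb bin, from chromatin of cells that the labels call TTF. The members are every bin of these 2 chromosomes with a mean count of at least 100 in both tables: 118 of 121 bins of chromosome 12 and 101 of 105 of chromosome 15, out of 2582 bins that pass the same minimum over the genome. The chromosomes were chosen by their read share, which differed between the clones labelled HY and the other clones, so every value of the HY clones against the other clones is given as a description, without a test. The bins outside the minimum were the first 3 of each chromosome and the last, partial bin of chromosome 15, with mean counts of at most 0.25. The lowest member was the last bin of chromosome 12 (120000001 to 120129022, mm10), with mean counts of 7256 and 989, and the next lowest on that chromosome had means of 54061 and 23845.

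All 24 labelled samples came from female cells of a C57BL6/CAST hybrid, and the labels give each of them X-rays at 5 Gy and 30 min of recovery. Chromatin sheared to 300 to 500 bp was precipitated with an antibody to the histone variant H2AX or to its phosphorylated form γH2AX, or kept as input. The first table holds wild-type (WT) cells and SIRT7-KO cells, with 2 libraries per genotype for γH2AX, H2AX and input. There, 1 column of each pair is named NT and the other Xray, although the labels state irradiation for all, so the names are used here only to tell the libraries apart. The labels name no clone for the KO cells of the first table, which are called bulk here. Whether they are a mixed population or a single line is not stated. The second table holds clones: clones of SIRT7-KO cells (c22, c9), derivatives of both that carry SIRT7-WT (here called rescued), and the HY clones c5 and c7, each with 1 γH2AX and 1 H2AX library per clone. The labels do not explain HY, nor which numbered column is which clone, and the inputs of the clones were not used here. WT columns of the second table came with γH2AX, H2AX and input in 2 libraries each, and the second of each repeated the NT-named WT column of the first table, with equal counts in 2645 of 2645 bins. Nothing in the labels says that the WT or KO replicates were separate cultures, so a p-value here reflects only how far these samples vary, which may be technical variation. Counts of DNA do not show expression, so the cell type named in the labels could not be checked against its markers, and a deletion within the Sirt7 gene is too small to be seen in a 1 Mb bin.

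SIRT7 is a nuclear deacetylase of the sirtuin family with known roles at ribosomal DNA and in the response to DNA breaks. H2AX is a core histone variant spread through chromatin, and kinases of the damage response phosphorylate it around double-strand breaks to give γH2AX. The number of reads from a stretch of DNA rises and falls with the number of copies of it in the cells as well as with the histone on it, and input chromatin carries only the first of these together with shearing and mapping. In a culture, a change in few cells and a smaller change in all cells cannot be told apart.

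The results on chromosome 12 turn on its distal end, where the read level changed between the imprinted Dlk1-Dio3 domain and the genes beyond it. Dlk1, a NOTCH-family ligand expressed from the paternal allele, and Dio3, the deiodinase that inactivates thyroid hormone, mark the 2 ends of that domain, and Akt1, a growth kinase, lies past the change. Their promoters are shown to place the change on the sequence, from RefSeq on GRCm38.p6, the assembly called mm10, 5′ to 3′ on the gene's strand and ending at the base before the listed start. Capitals mark GC boxes (GGGCGG or CCGCCC, both strands), which 32.7% of 32851 promoter windows of 250 bases hold. The Dlk1 window (chr12:109452573-109452822, plus strand) holds 0 of these boxes and the Dio3 window (chr12:110278980-110279229, plus strand) holds 4. The Akt1 window (chr12:112674885-112675134, minus strand, the first of 2 listed starts) holds 0. The bin with Dlk1 also holds 57 of the 92 hairpins on chromosome 12 in the set of miRNA sequences used here. Mature forms of 3 of them are shown to mark that cluster, in order along the plus strand, with the seed (bases 2 to 8) in capitals, and no 2 of them share a seed.
Dlk1: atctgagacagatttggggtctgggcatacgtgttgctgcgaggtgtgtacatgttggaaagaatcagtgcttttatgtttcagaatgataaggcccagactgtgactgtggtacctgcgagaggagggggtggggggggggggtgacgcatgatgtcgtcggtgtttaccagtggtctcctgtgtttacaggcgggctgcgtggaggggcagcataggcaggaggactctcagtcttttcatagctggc
Dio3: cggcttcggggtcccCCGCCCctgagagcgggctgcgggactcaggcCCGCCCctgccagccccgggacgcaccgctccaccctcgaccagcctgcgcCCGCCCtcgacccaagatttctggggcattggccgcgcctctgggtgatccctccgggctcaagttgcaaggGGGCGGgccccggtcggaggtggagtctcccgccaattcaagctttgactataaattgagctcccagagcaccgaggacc
Akt1: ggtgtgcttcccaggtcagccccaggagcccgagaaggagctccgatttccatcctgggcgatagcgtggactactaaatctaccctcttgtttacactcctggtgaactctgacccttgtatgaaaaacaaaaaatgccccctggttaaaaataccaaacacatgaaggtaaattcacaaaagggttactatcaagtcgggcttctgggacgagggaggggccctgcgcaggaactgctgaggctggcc
mmu-miR-127-3p: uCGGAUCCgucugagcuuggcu
mmu-miR-379-5p: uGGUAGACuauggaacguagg
mmu-miR-134-5p: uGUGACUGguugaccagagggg

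Library totals were 169486383 to 267528750 reads in the first table and 70241980 to 155101148 in the clones. Chromosome 12 received 7337713 to 12168623 reads per library of WT and KO and 2744140 to 7633460 per clone library, and chromosome 15 received 7073603 to 10641726 and 3780266 to 8865134. At these depths the spread between libraries, not counting, limits the values: the biological coefficient of variation was 1.70% for chromosomes and 3.23% for bins among WT and KO libraries, and 9.46% and 11.4% among clones.

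Chromosome 15 was over-represented in the bulk SIRT7-KO cells in γH2AX, H2AX and input alike. Its share of autosomal reads in γH2AX was 4.12% and 4.24% in WT (NT-named, then Xray-named) and 4.62% and 4.73% in KO. In H2AX it was 4.10% and 4.14% in WT against 4.65% and 4.66% in KO. Input gave 4.18% and 4.18% in WT against 4.71% and 4.71% in KO. The KO libraries lay above the WT libraries without overlap in all 3 assays. The log2 difference of KO from WT was 0.16 for γH2AX (SE 0.014), with an adjusted p of 1.01e-05 by edgeR's quasi-likelihood test over 20 chromosomes. It was 0.17 for H2AX (adjusted p = 6.02e-06) and 0.17 for input (adjusted p = 7.89e-06). Most chromosomes passed this test, 85% in each assay, so passing it does not set chromosome 15 apart. Overlap of the groups was not counted for the other chromosomes or bins. Its absence, here or below, therefore sets neither chromosome 15 nor chromosome 12 apart.

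Chromosome 12 was lower in the KO cells, by less. Its share of reads was 4.76% and 4.84% in WT and 4.57% and 4.62% in KO for γH2AX. For H2AX it was 4.79% and 4.86% against 4.58% and 4.60%, and for input 4.75% and 4.78% against 4.56% and 4.58%. These groups did not overlap either, and the log2 difference was -0.06 for γH2AX (SE 0.011), with an adjusted p of 0.00073. H2AX gave -0.07 (adjusted p = 0.000326) and input -0.06 (adjusted p = 0.000921). The change of γH2AX or H2AX relative to input, and of γH2AX relative to H2AX, was at most 0.013 in size on either chromosome, with adjusted p from 0.964 to 0.988 (background 0% of chromosomes). With libraries scaled by TMM over bins, γH2AX relative to input passed the threshold on both chromosomes, at -0.03 (adjusted p = 0.0354) on chromosome 12 and -0.03 (adjusted p = 0.0342) on chromosome 15, and H2AX relative to input did so on chromosome 12 (-0.04, adjusted p = 0.0112). By bins, edgeR called 0 of either chromosome for γH2AX relative to H2AX, γH2AX relative to input and H2AX relative to input (background 0.155%, 0.0387% and 0%). Counts at an unadjusted p under 0.05 were 4, 0 and 8 of 118 bins and 1, 0 and 2 of 101.

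**Figure D1:**
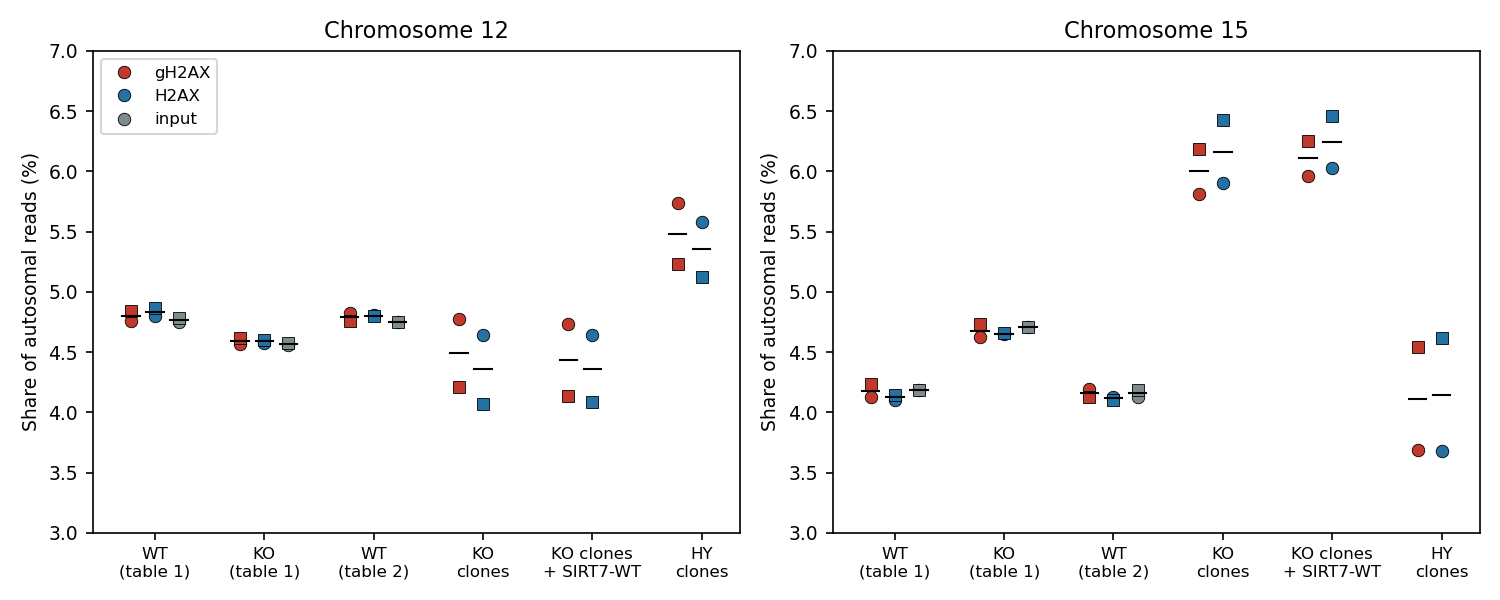
Share of autosomal reads (percent) that fell on chromosome 12 and on chromosome 15 in each library, by assay and group, with 1 point per library (circles the NT-named or first column, squares the Xray-named or second) and a bar at the mean. KO libraries of the first table sit below WT on chromosome 12 and above WT on chromosome 15, and the HY clones lie above the KO and rescued clones on chromosome 12 and below them on chromosome 15.

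The rise of chromosome 15 ran along its whole length. Of its 101 bins, γH2AX was higher in KO in 97, H2AX in 98 and input in 95, with 0 lower for each assay. Over the genome 60.1%, 63.3% and 57.5% of bins were called in either direction (background of bins called higher 30.1%, 30.6% and 32.1%, and lower 30.1%, 32.6% and 25.4%). The median bin differed by 0.17, 0.18 and 0.21 on the log2 scale, against -0.03, -0.04 and -0.01 over all bins tested. The first member bin, which holds Ghr, the growth hormone receptor, differed by 0.15 in γH2AX and the bin with Myc, the proto-oncogenic transcription factor, by 0.21. Read level in the Myc bin (chr15:61000001-62000000) was 382 and 378 reads per 1000000 autosomal reads (RPM) in WT and 439 and 432 in KO for γH2AX. Input gave 416 and 425 in WT and 486 and 484 in KO for the same bin. Here too every KO library was above every WT library, and the γH2AX difference had an adjusted p of 9.99e-05 (edgeR). The largest γH2AX rise among the members of chromosome 15 fell on the bin with the Ly6 surface antigen genes and Gpihbp1, which carries lipoprotein lipase across capillaries (chr15:75000001-76000000). That bin had 755 and 842 RPM in WT and 945 and 1071 in KO for γH2AX, and its log2 differences were 0.35, 0.28 and 0.31 in γH2AX, H2AX and input (adjusted p = 0.000317, 0.0013 and 0.000679). The Ly6 genes are close copies of one another, and how reads that fit several copies were placed is not given in the sources used here. Segmentation of each KO library over the mean WT level found a step of at least 0.15 on chromosome 15 in 0 of 6 libraries.

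**Figure D2:**
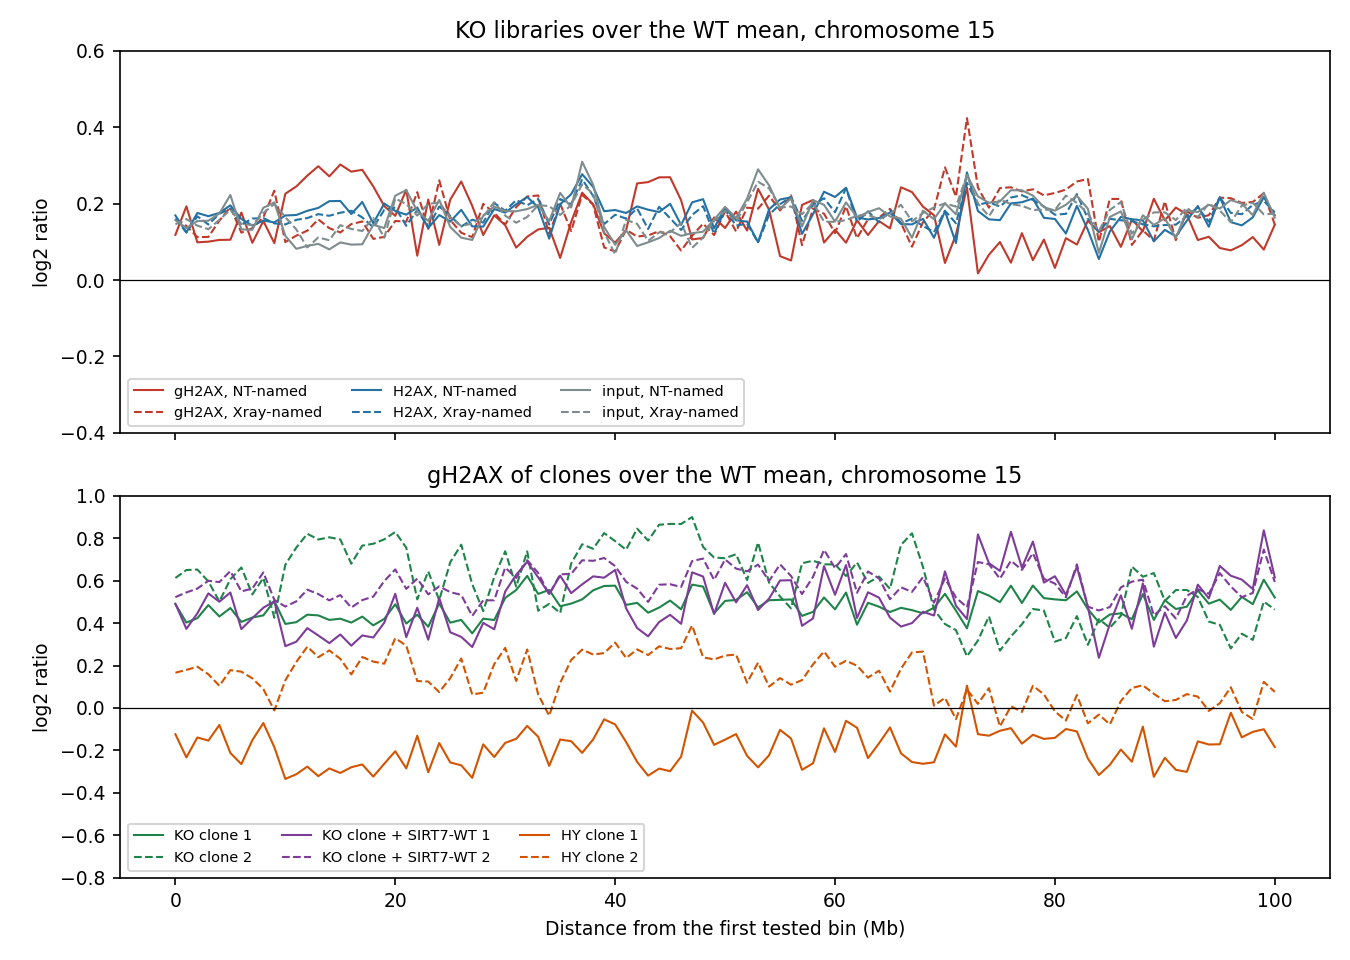
Log2 ratio over the mean WT level in each bin of chromosome 15 (distance from the first tested bin in Mb), for KO libraries of the first table (upper panel) and for γH2AX of the clones (lower panel). The KO lines run level above 0 along the chromosome, and the KO and rescued clones run above the HY clones.

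On chromosome 12 the KO cells lay further below WT per bin at the distal end than over the rest. All 6 KO libraries, 2 each of γH2AX, H2AX and input, had exactly 1 breakpoint over the mean WT level. It opened at bin 111000001 in 4 of them, at 110000001 in the Xray-named input library and at 108000001 in the NT-named γH2AX library, with steps of -0.25 to -0.29. The 10 bins from 111000001 to the end of the chromosome were compared with the rest of it as the median bin over the median autosomal bin. Distal level in input was 1.39 and 1.40 in WT and 1.16 and 1.16 in KO, while the rest of the chromosome stood at 1.08 and 1.08 in WT and 1.08 and 1.09 in KO. Distal H2AX was 1.44 and 1.48 in WT and 1.16 and 1.19 in KO, and distal γH2AX 1.38 and 1.28 in WT and 1.15 and 1.05 in KO. The distal stretch was thus higher than the rest of chromosome 12 in WT in all 3 assays, and the KO libraries were below WT there without overlap. A step in the ratio over WT does not tell whether the WT or the KO level changed. With the 10 distal bins left out, which was chosen after the breakpoints were seen, chromosome 12 differed by -0.04, -0.05 and -0.04 in the 3 assays in that order (adjusted p = 0.00965, 0.0033 and 0.0119). With them it differed by -0.06, -0.07 and -0.06 in γH2AX, H2AX and input. These differences are scaled to the autosomal total. Whether the rest of the chromosome was lower in KO depended on this scaling. Over the median autosomal bin, the rest stood in H2AX at 1.063 and 1.085 in WT and 1.059 and 1.074 in KO. In γH2AX it stood at 1.11 and 1.085 in WT and 1.106 and 1.072 in KO, and input is given above.

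Bin by bin the change set in over the imprinted domain. The bin at 108000001, with Yy1, a zinc finger regulator, and Evl, an actin polymerisation factor, differed by -0.04, -0.01 and 0.01 in γH2AX, H2AX and input and passed in none of them. The next bin, with Dlk1, Meg3, a maternally expressed non-coding RNA, and the miRNA cluster shown above, fell by 0.11 in γH2AX (adjusted p = 0.00597) and by 0.10 in H2AX (adjusted p = 0.00667). Input there gave -0.06 (adjusted p = 0.07). The Dio3 bin fell by 0.18 (adjusted p = 0.0187) and 0.15 (adjusted p = 0.037), with input at -0.13 (adjusted p = 0.075). The full difference from WT was reached at 111000001. This is the bin of Traf3, an adaptor of TNF receptors, Ckb, the brain creatine kinase, and Xrcc3, a gene of homologous recombination. Its γH2AX level was 605 and 688 RPM in WT and 465 and 531 in KO. Input was 540 and 527 in WT and 437 and 422 in KO. No KO library reached a WT library, and the log2 differences were -0.36, -0.32 and -0.28 in γH2AX, H2AX and input (adjusted p = 0.000536, 0.0011 and 0.00271). Akt1 lies in the next bin (chr12:112000001-113000000), which fell by 0.33, 0.34 and 0.26. Ighm, the constant region of the immunoglobulin mu heavy chain, lies in the bin after it, which fell by 0.30, 0.34 and 0.28, and Ptprn2, a long gene for a secretory vesicle phosphatase, in one that fell by 0.30, 0.31 and 0.28. In the small last bin the differences were -0.12, -0.18 and -0.10, none past the threshold.

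Over the whole of chromosome 12, KO was lower in 15 of 118 bins for γH2AX, 25 for H2AX and 9 for input, and the medians of -0.03, -0.04 and -0.01 matched those of all bins to 2 decimals. Shares this small lie below the background of bins called lower (30.1%, 32.6% and 25.4%). The single bin called higher, in input only, was 95000001, with the cell adhesion gene Flrt2 (0.17, adjusted p = 0.00222). Counts of bins depended on the libraries and on the fit: the 15 bins in γH2AX became 24 without the Xray-named KO library, and the 25 in H2AX became 12 without the NT-named KO and 9 without the Xray-named WT library. Fitting only the libraries of 1 assay gave 9, 16 and 51 bins of chromosome 12 in γH2AX, H2AX and input, and 51 bins of chromosome 15 in γH2AX.

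**Figure D3:**
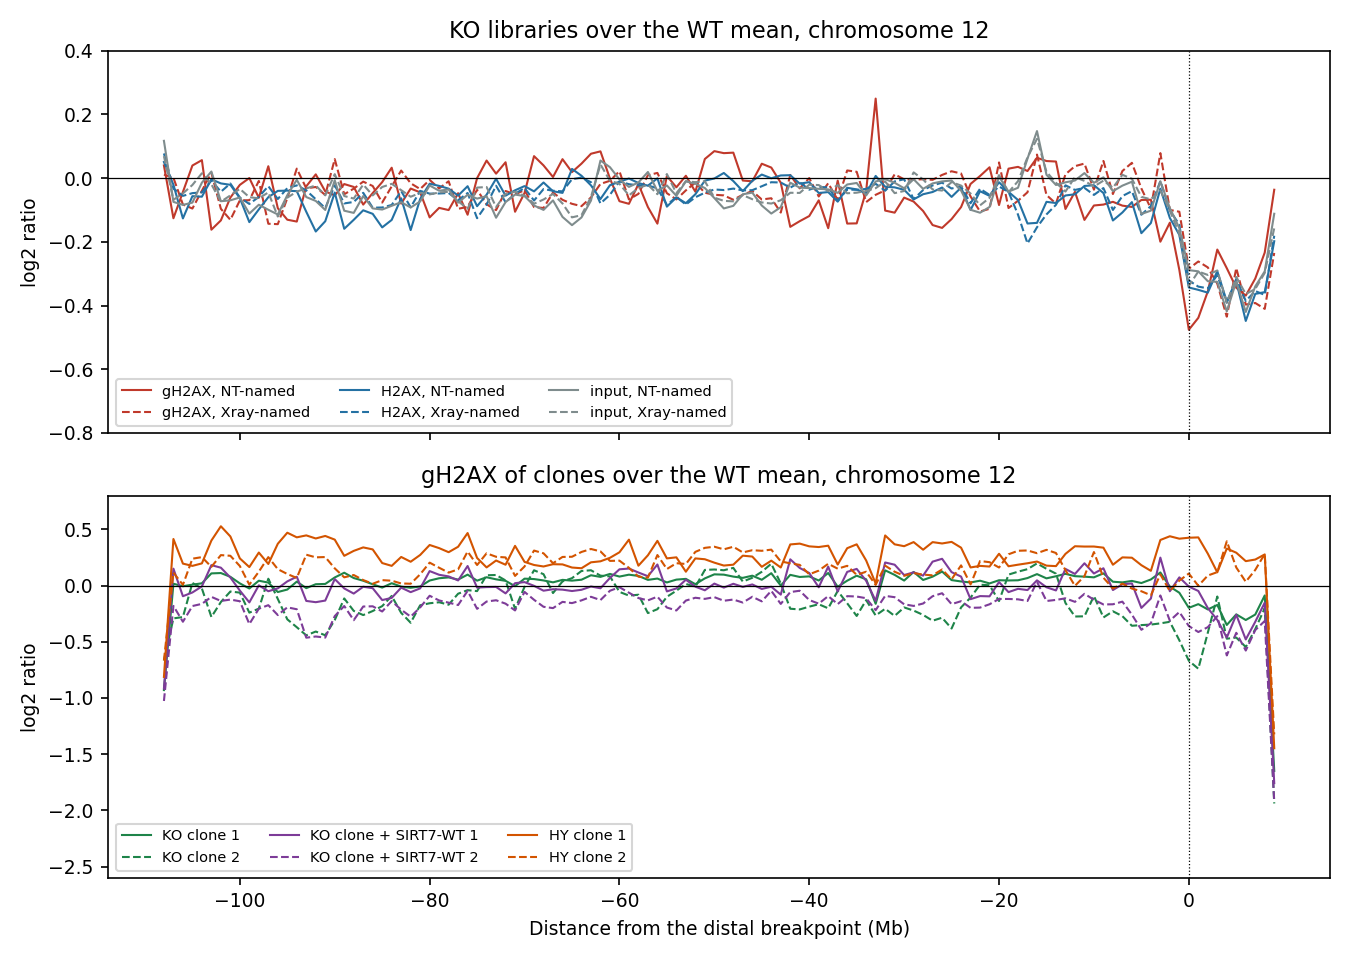
Log2 ratio over the mean WT level in each bin of chromosome 12 (distance from the distal breakpoint, the dotted line, in Mb), for KO libraries of the first table (upper panel) and for γH2AX of the clones (lower panel). The 6 KO lines drop together near the distal end, where the KO and rescued clones also drop, and the last bin is low in all clones.

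Bins with genes of lists drawn up by function are counted here beside their chromosome: in γH2AX 12.7% of the bins of chromosome 12 were lower in KO and 96.0% of those of chromosome 15 higher, against 30.1% lower and 30.1% higher over all bins. Of bins with DNA repair genes, 1 of 8 on chromosome 12 was lower in KO in γH2AX, that of Xrcc3, and 6 of 7 on chromosome 15 were higher. Bins with growth regulators gave 2 of 11 lower on chromosome 12, those of Akt1 and of Ahr, the dioxin receptor (-0.09, adjusted p = 0.0215), and 3 of 3 higher on chromosome 15, those of Myc, its neighbour Pvt1 and the pseudokinase gene Trib1. Both bins of imprinted genes on chromosome 12 were lower, and the 1 on chromosome 15, with the potassium channel gene Kcnk9 and Peg13, was higher. Long genes of the kind found at fragile sites gave 1 of 9 bins lower on chromosome 12, that of Ptprn2, and 9 of 9 higher on chromosome 15. Chromatin regulators gave 0 of 5 bins on chromosome 12 in either direction and 5 of 6 higher on chromosome 15. Matrix and fibroblast genes gave 0 of 3 in either direction and 8 of 8 higher, and multigene clusters 1 of 3 lower and 4 of 5 higher.

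Reads of the WT libraries that could be assigned to 1 of the 2 parental genomes showed where the chromosomes carry an even mixture. The sources used here do not say which parent is genome 1. Its share of assigned reads in the median bin ranged over 6 WT libraries from 49.8% to 50.2% on chromosome 12 and from 49.9% to 50.4% on chromosome 15, against 56.0% to 56.4% for the median autosomal bin. Along chromosome 15 the share stayed near its median, with 3 bins under 45% and 0 over 55% in every library. Chromosome 12 varied more, with 28 to 31 bins under 45% and 8 to 9 over 55%. The distal breakpoint of the KO libraries over WT also appeared in the parental share of WT alone. The share was 49.4% to 50.3% in the Dlk1 bin, 53.3% to 53.9% in the Dio3 bin, 59.7% to 60.7% in the Xrcc3 bin and 59.7% to 60.0% in the Akt1 bin. Segmentation of the WT share gave 58.8% to 59.6% for the distal segment in all 6 libraries, from 278593 to 678798 assigned reads. Lowest of the chromosome was the bin with Sox11, a neural transcription factor, at 5.79% to 6.47%, and on chromosome 15 the lowest bin (23000001) had 26.9% to 30.8%. The 6 libraries share their cells and the known differences between the parental genomes, so they are not independent measurements of one bin. Parental columns of KO and clone libraries were not analysed here.

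**Figure D4:**
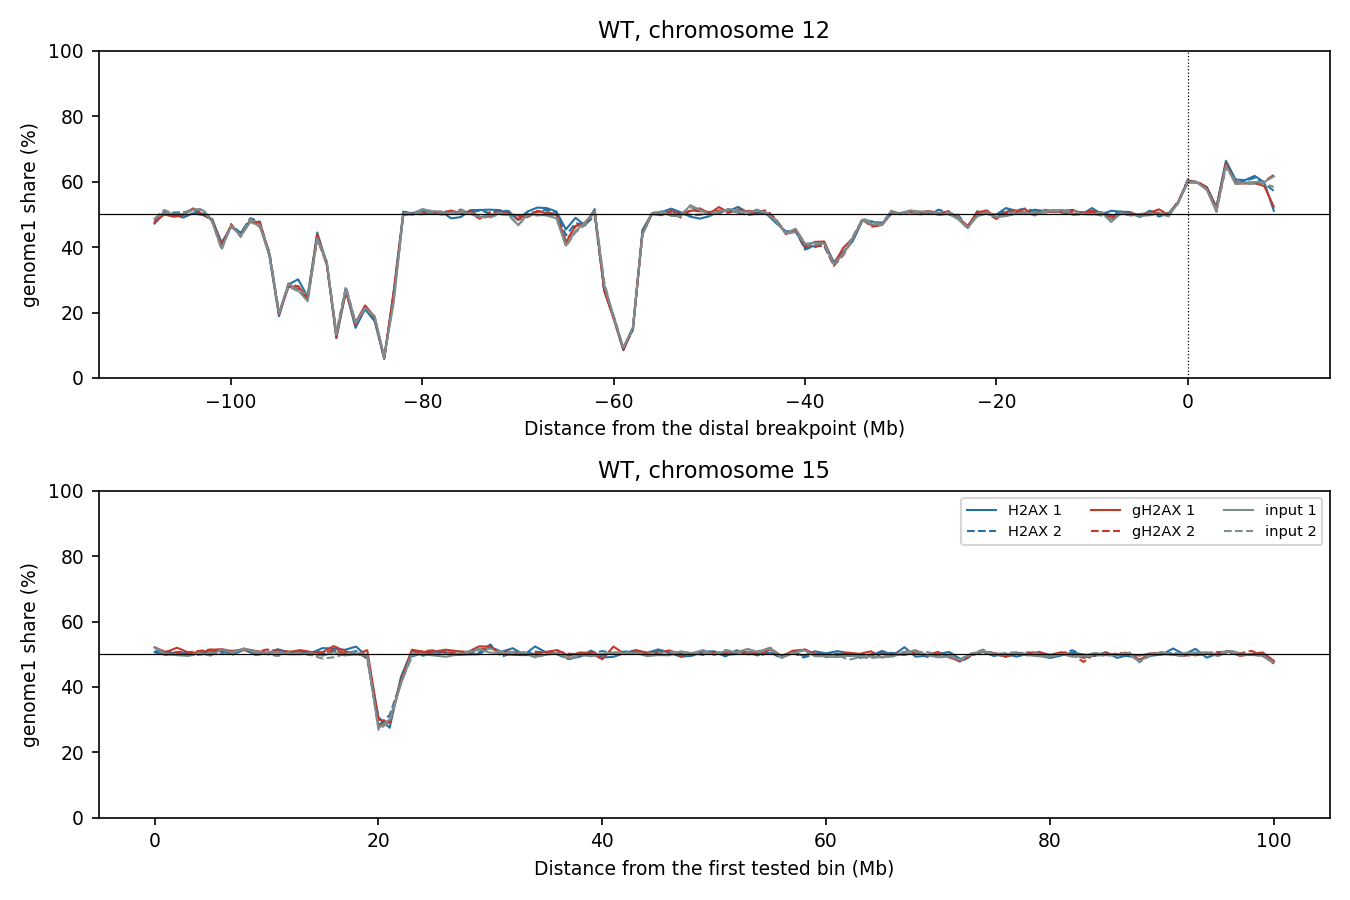
Share of assigned reads that went to parental genome 1 (percent) in each bin of chromosomes 12 and 15 (distance in Mb from the distal breakpoint and from the first tested bin), with 1 line per WT library. The lines for chromosome 15 stay near 50% apart from 1 dip, and those for chromosome 12 have low stretches and rise past the breakpoint, where the distal segment is at 58.8% to 59.6%.

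In the clones the 2 chromosomes stood far apart. Chromosome 15 held 5.81% and 6.19% of autosomal γH2AX reads in the KO clones, 5.96% and 6.25% in the rescued clones, and 3.68% and 4.54% in the HY clones. Its H2AX shares were 5.90% and 6.42%, 6.02% and 6.46%, and 3.68% and 4.62% in the same order. The KO and rescued clones lay above the second-table WT libraries (4.12% to 4.19% in γH2AX and 4.10% to 4.12% in H2AX), and WT fell between the 2 HY clones. Chromosome 12 held 4.77% and 4.21% of γH2AX reads in the KO clones, 4.74% and 4.13% in the rescued clones, and 5.74% and 5.23% in the HY clones. Its H2AX shares were 4.64% and 4.07%, 4.64% and 4.08%, and 5.58% and 5.13%. HY lay above every other clone and above WT (4.76% to 4.82% in γH2AX, 4.79% to 4.80% in H2AX). The HY clones also differed from each other: the first had more of chromosome 12 and less of chromosome 15 than the second, in both assays.

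As a description, HY minus KO clones in mean log2 share was 0.29 and 0.30 on chromosome 12 and -0.55 and -0.58 on chromosome 15, in γH2AX and H2AX. Chromosome 15 ranked first and chromosome 12 second among 20 chromosomes by the size of this difference, which is how they came to be chosen. Against the rescued clones the values were 0.31 and 0.30 on chromosome 12, and -0.58 and -0.60 on chromosome 15. Leaving out 1 clone library moved the γH2AX difference from KO clones within 0.20 to 0.38 on chromosome 12 and within -0.70 to -0.40 on chromosome 15. The KO clones are one side of the contrast by which the chromosomes were chosen, so their difference from WT is given without a test as well. It was 0.53 in γH2AX and 0.58 in H2AX on chromosome 15, and -0.09 and -0.14 on chromosome 12. By bins, this difference was above 0 on chromosome 15 in 101 of 101 in γH2AX but in 78 in H2AX. On chromosome 12 it was above 0 in 2 of 118 bins in γH2AX and in 48 in H2AX. Over all 2582 bins it was above 0 in 1192 in γH2AX and in 1324 in H2AX. Of the WT libraries, 1 per assay is also a control of the bulk KO cells above, so the 2 sets of values are not independent.

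Return of SIRT7 to the KO clones was accompanied by no change that passed the test on either chromosome. Rescued minus KO clones was -0.02 in γH2AX and 0.0013 in H2AX on chromosome 12, and 0.03 and 0.02 on chromosome 15. The SE was 0.12 and edgeR's adjusted p at least 0.9945 (background 0% of chromosomes). Both groups are among the clones from which HY differed, so the test is not free of the choice of chromosomes. By bins, edgeR called 0 of 118 and 0 of 101 in either assay (background 0.0387% in γH2AX and 0% in H2AX), and DESeq2 likewise called 0. At an unadjusted p under 0.05 the counts were 0 on chromosome 12 and 2 on chromosome 15 in γH2AX, and 0 and 0 in H2AX. This SE holds the spread between the clones. With the column number as a block, the γH2AX values were -0.02 and 0.03 (adjusted p = 0.383 for both) and the H2AX values 0.0015 and 0.02 (adjusted p = 0.955 for both) on chromosomes 12 and 15. Between same-numbered columns, the share of chromosome 15 given above was higher in the rescued clone in both pairs and both assays, and that of chromosome 12 in γH2AX was lower in both pairs. In the segmentation of the rescued over the KO clones, chromosome 12 had no breakpoint in any of 4 libraries and chromosome 15 had 1, at 73000001 in 1 library (0.21).

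Along chromosome 12 the HY clones exceeded the KO clones in 118 of 118 bins in γH2AX, by 0.06 to 0.78 and with a median of 0.28, where 51.9% of all bins were above 0 (55.5% in H2AX). On chromosome 15 they exceeded the KO clones in 0 of 101 bins, with a median of -0.55. The contrast was the one by which the chromosomes were chosen, so these counts describe its extent only. The distal step of chromosome 12 was present in the clones too. All 4 HY libraries stepped up over the KO clones between 108000001 and 111000001, by 0.27 to 0.33. Over WT none of these 4 had a breakpoint within 2 bins of 111000001, but it was found in only 1 KO and 1 rescued γH2AX library, at 111000001 and 113000001, so its absence does not set HY apart. Distal level over the autosomal median in γH2AX was 1.49 and 1.40 in HY, 1.07 and 0.996 in KO and 0.994 and 0.982 in rescued clones. In H2AX it was 1.45 and 1.33 in HY, 0.973 and 0.851 in KO, and 0.962 and 0.842 in rescued clones. HY stood above the others in both assays without overlap. Set against WT and against the rest of the chromosome, the γH2AX step at the distal end was 0.02 and -0.06 in HY, -0.29 and -0.32 in KO clones and -0.27 and -0.26 in rescued clones. The H2AX step was -0.11 and -0.14 in HY, -0.46 and -0.41 in KO clones and -0.48 and -0.41 in rescued clones, and the 6 bulk KO libraries over all assays had -0.26 to -0.31. In both assays the HY values lay above those of the other clones, and in H2AX they lay below WT. The distal bins include those from 118000001 on, where γH2AX stepped down over WT in 6 of 6 clone libraries (-0.59 to -0.36). The part of these bins in the clone steps was not tested. The Xrcc3 bin had 880 and 706 RPM in γH2AX in HY, 571 and 412 in KO clones and 651 and 511 in rescued clones, beside 706 and 605 in WT.

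**Figure D5:**
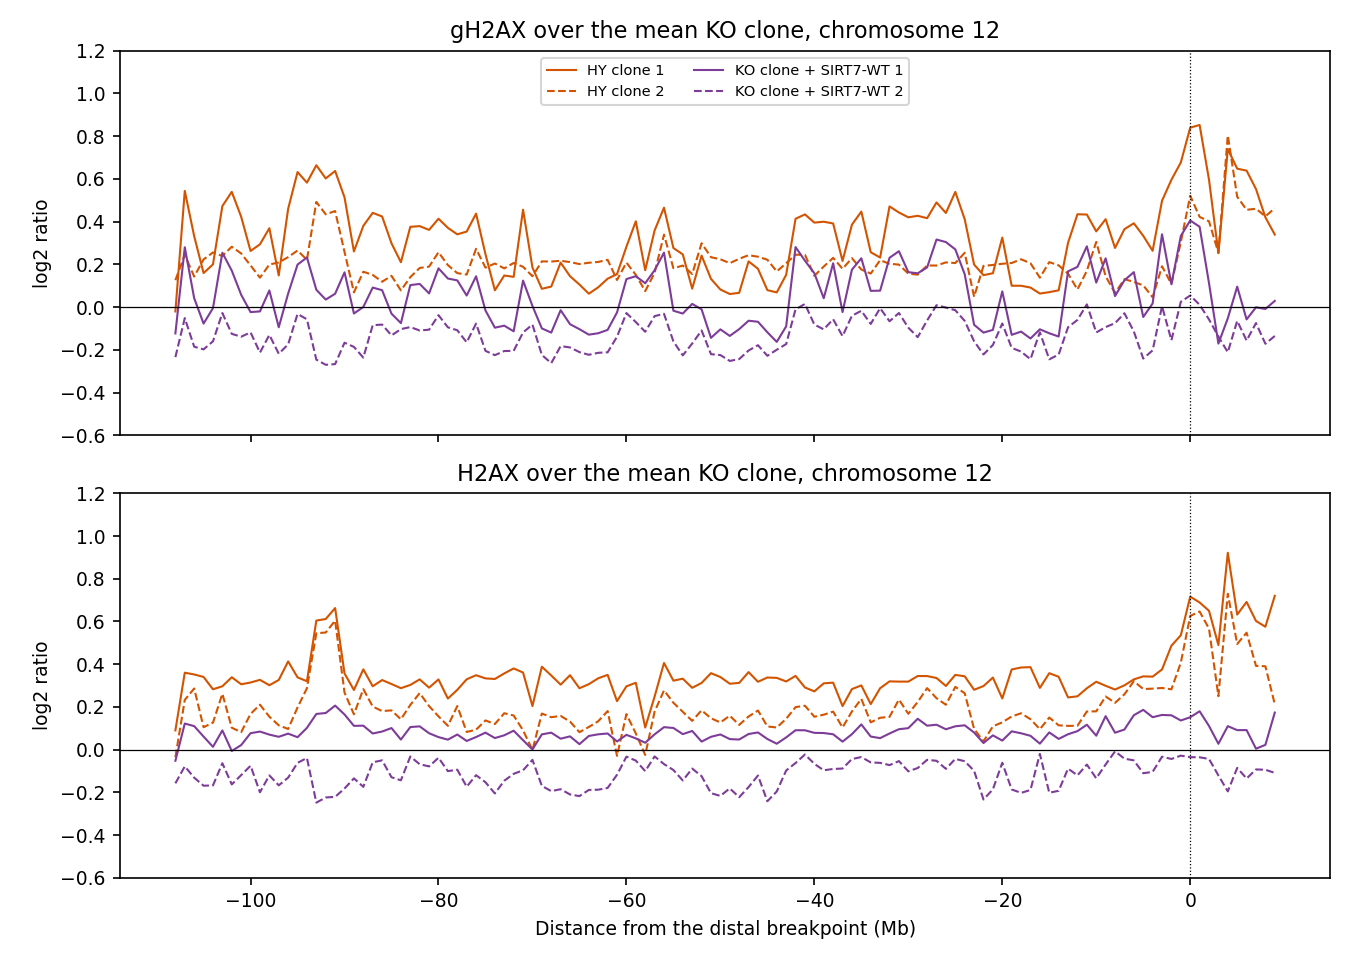
Log2 ratio of each HY and rescued library over the mean of the KO clones in each bin of chromosome 12 (distance from the distal breakpoint, the dotted line, in Mb), for γH2AX (upper panel) and H2AX (lower panel). HY lines lie above 0 in nearly all bins, with a raised stretch in the left part (18000001 to 21000000) and a step up at the breakpoint, and segmentation found no step in the rescued lines.

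A shorter stretch of chromosome 12, from 18000001 to 21000000, was raised in HY over the KO clones beyond the bins beside it. Its median log2 difference was 0.64 and 0.45 in γH2AX and 0.61 and 0.55 in H2AX. The distal stretch was raised about as much, by 0.62 and 0.46 in γH2AX and 0.67 and 0.52 in H2AX. Breakpoints opened and closed the shorter stretch in 3 of 4 HY libraries, with steps of 0.24 to 0.41 up and of -0.27 to -0.40 down. Its ends were taken from these same breakpoints, so its excess over the KO clones is a description and no support for the stretch. Against 5 bins on each side, that excess was 0.20 and 0.25 in γH2AX and 0.29 and 0.36 in H2AX. Over WT the same measure in γH2AX was 0.11 and 0.16 in HY, -0.03 and -0.22 in KO clones and -0.12 and -0.26 in rescued clones. The bulk KO libraries gave -0.06 to 0.03. The stretch holds Zfp996, a zinc finger gene, among predicted genes, and in WT only 12.7% to 33.1% of its reads were assigned to a parent, against 61.8% to 68.6% in the median bin of the chromosome. The part of read placement in this result was not tested.

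γH2AX and H2AX were set against each other within each clone group, while the chromosomes were chosen by differences between clone groups. The libraries are the same, so the tests here are not shown to be free of that choice. By chromosome the difference of γH2AX minus H2AX was 0.04, 0.02 and 0.03 on chromosome 12 in KO, rescued and HY clones, and -0.04, -0.03 and -0.01 on chromosome 15. Adjusted p lay between 0.79 and 0.97, with 5% of chromosomes called. TMM over bins turned the values of chromosome 12 to -0.12, -0.11 and -0.14 (adjusted p = 0.47, 0.539 and 0.38), and with the column number as a block KO and HY passed there (0.04, adjusted p = 0.0193, and 0.03, adjusted p = 0.045). By bins, γH2AX was higher than H2AX in 45 bins of chromosome 12 and lower in 40 in the KO clones (background 32.6% and 29.9%). These counts were 44 and 33 in the rescued clones (background 30.6% and 25.1%) and 45 and 35 in HY (background 31.6% and 27.9%). On chromosome 15 they were 30 and 36, 33 and 33, and 35 and 34. Over the genome 62.4%, 55.7% and 59.5% of bins were called in either direction. As a description, γH2AX minus H2AX was higher in HY than in the KO clones in 58 of 118 bins of chromosome 12 and 63 of 101 of chromosome 15, beside 47.4% of all bins. Bins rich in genes were low: Pearson's r between the difference and the number of protein-coding gene starts was -0.72 over 118 bins of chromosome 12 and -0.70 over 101 bins of chromosome 15 in the KO clones, and -0.71 and -0.70 in HY. The bins share libraries and base composition, so r is a description. In the KO clones the 11 bins of chromosome 12 with at least 15 such genes had a median of -0.62 and the 48 with at most 2 a median of 0.67, and on chromosome 15 the 18 and 38 such bins had -0.76 and 0.59. H2AX itself, in KO clones against WT, ran the opposite way with gene number, at 0.30 in gene-rich and -0.80 in gene-poor bins of chromosome 12, and 1.07 and -0.08 on chromosome 15. The H2AX profiles of the clones were also rougher over WT, with a bin-to-bin noise of 0.21 to 0.28 against 0.03 to 0.09 in γH2AX.

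The ends of chromosome 12 differed between all clones and WT. Its last bin had 11.4 to 17.4 RPM of γH2AX in the 6 clone libraries against 38.9 and 48.5 in WT, and 3.27 to 5.81 against 26.7 and 33.5 in H2AX. In the bulk KO cells it had 43.1 and 37.5 in γH2AX and 28.2 and 28.5 in H2AX. The low level was thus found in KO, rescued and HY clones alike, and the bulk KO libraries overlapped WT in γH2AX. Segmentation of γH2AX over WT opened a segment at 118000001 in 6 of 6 clone libraries and at 6000001 in 5 of 6. The first segment takes in the first member bin, 3000001, which holds the DNA methyltransferase gene Dnmt3a and was at -0.94 in γH2AX in KO clones against WT. Why the clone and WT columns differ in these edge bins was not tested.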

How the data were processed

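Raw counts per 1 Mb bin on mm10 were used as deposited. Per the submitters' processing notes, the authors used MACS2 2.2.7.1, Bowtie2 2.2.9, deepTools 2.4.2, Trimmomatic 0.36, SAMtools 0.1.19 and FastQC 0.11.3, whose roles are not given. How the total, genome 1 and genome 2 counts were separated, and how duplicates and reads with several placements were treated, is not given in the sources used here. Of 144 value columns 42 were used, and 102 were not.

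Counts per chromosome were scaled to the autosomal total and counts per bin by TMM, and tested with edgeR 4.0.16 (R 4.3.3), quasi-likelihood with Benjamini-Hochberg adjustment at 0.05, over all 20 chromosomes or 2582 bins. All groups of a table share 1 fit, and WT joined the clones in a separate one. The bin test of γH2AX against H2AX was added after the data were seen. Breakpoints came from least-squares segmentation of log2 ratios (penalty 10 times the noise variance times the log of bin number, segments of at least 3 bins, steps of at least 0.15, positions matched within 2 bins). Parental shares needed 100 assigned reads. Named bins hold genes of the lists, flank breakpoints or end a chromosome, or have 1 of the 3 largest differences in a comparison and direction. Fits and segmentation were tested on simulated data. DESeq2 1.42.0, other scalings, fits of the compared groups, blocks and left-out libraries were the alternatives. The members and lists were chosen with earlier results of these data known.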

Additional observations from a re-analysis of the deposited data

How the results depend on the processing

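Over 51 results, 359 of 412 alternative values were unchanged, and 35 reversed in sign. Unchanged means the same direction and side of the threshold, or for counts within 1.5 times. For the HY differences and the parental shares, which had no test, it means a shift under 1 SD. For γH2AX, H2AX and input each taken alone, KO against WT was unchanged in this sense on both chromosomes at chromosome level under every alternative run. This does not hold for 1 assay relative to another, given below. With 2 libraries a group, an exact permutation test cannot go below p = 0.333, so the calls rest on a spread pooled over groups, and a fit without 1 library assumes that the one left varies like the other groups. In the clone fit without a block the SE of about 0.12 limits what can be told from 0, and depth is not the limit. The cause of each change below was not tested.

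With TMM over bins, γH2AX relative to input in KO against WT was -0.026 on chromosome 12 and -0.031 on chromosome 15, and H2AX relative to input was -0.039 and -0.024. Rescued minus KO clones in γH2AX on chromosome 12 was 0.024, and γH2AX minus H2AX there was -0.12, -0.11 and -0.14 in KO, rescued and HY clones. Bins called on chromosome 12 numbered 16 in H2AX with DESeq2 size factors and 20 in input with the autosomal total. Fits of the compared groups alone gave 9, 16 and 51 for γH2AX, H2AX and input, and 51 for γH2AX on chromosome 15. With the penalty lowered to 2, 1 KO library had a breakpoint on chromosome 15, and γH2AX of the clones over WT had 43 breakpoints on chromosome 12 and 12 on chromosome 15, against 18 and 2. The distal step was found in 4 of 4 HY libraries over the KO clones and in 0 over WT, where it was also found in only 2 of 6 γH2AX clone libraries.

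The replicate block used the column names, which the labels do not tie to a shared culture. With it, γH2AX minus H2AX on chromosome 12 was 0.044 in KO clones (adjusted p = 0.0193) and 0.034 in HY (adjusted p = 0.045), and it changed no other call. Deviations of same-named libraries correlated across all bins at 0.96, 0.68 and 0.49 for γH2AX, H2AX and input of the first table, and at 0.44 to 0.94 between clone groups. No blocked fit was made for KO clones against WT, whose numbers name different cells.

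Leaving out 1 library at a time, γH2AX relative to H2AX in KO against WT ranged from -0.0031 to 0.022 on chromosome 12 and -0.031 to 0.0081 on chromosome 15. Relative to input it ranged from -0.016 to 0.0099 and from -0.028 to 0.011, and H2AX relative to input on chromosome 15 from -0.0045 to 0.0098. Bins called on chromosome 12 ranged from 15 to 24 in γH2AX and from 9 to 26 in H2AX. Rescued minus KO clones ranged from -0.12 to 0.077 and -0.018 to 0.072 in γH2AX, and from -0.094 to 0.10 and -0.041 to 0.080 in H2AX, on chromosomes 12 and 15. γH2AX minus H2AX on chromosome 12 ranged from -0.050 to 0.14 in KO, -0.077 to 0.12 in rescued and -0.035 to 0.099 in HY clones. On chromosome 15 it ranged from -0.098 to 0.023, -0.081 to 0.021 and -0.17 to 0.16.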
